A study of Mus musculus with 11 samples.

Results

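Secretions of the airway and their carriers were described here through 10 genes: 3 secretoglobins (Scgb1a1, Scgb3a1 and Scgb3a2), 2 proteins of the BPI fold family (Bpifa1 and Bpifb1), and Reg3g, Lcn2, Ltf, Pigr and Dmbt1. They were chosen by gene name, and the 11 array probes that carry those names represent 10 of the 21874 genes tested. Total RNA of mouse lung was measured on 11 one-colour arrays. The animals were Foxa3-/- mice, which lack the forkhead transcription factor Foxa3, and littermate controls, called wild type (WT) here, and mice of each genotype received saline or OVA (the egg allergen ovalbumin, by background). The groups are 3 WT saline, 2 Foxa3-/- saline, 3 WT OVA and 3 Foxa3-/- OVA arrays. Strain, age and the length of the challenge are not given in the sources used here, and neither is whether an array is 1 animal, so the p-values measure only the spread between these samples, which may be technical.

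By background, club cells are the secretory cells of the small airways of the mouse. They make secretoglobins in large amounts, carry many detoxifying enzymes, and can take on the mucus-making goblet cell state during allergic inflammation. Airway epithelium also releases antimicrobial and scavenging proteins, some made at rest and some induced by cytokines, and carries polymeric antibody into the airway through the receptor encoded by Pigr. Foxa3 is a forkhead factor linked to the goblet cell state.

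With OVA, 6 of the 10 genes rose in WT lung (Bpifb1, Reg3g, Lcn2, Ltf, Pigr and Dmbt1), 1 fell (Bpifa1) and 3 did not pass the test (Scgb1a1, Scgb3a1 and Scgb3a2). Among all 21874 genes, 19% were called in this comparison, 10.6% higher and 8.49% lower. In Foxa3-/- lung, 5 of the 10 rose with OVA and 0 fell, against 8.16% of all genes called, 6.17% higher and 1.99% lower. The arrays of the challenges did not overlap for 8 of the 10 genes in each genotype, against 42.7% of all genes in WT and 49.3% in Foxa3-/- lung. The median difference of the 10 genes was 1.03 on the log2 scale in WT and 1.28 in Foxa3-/- lung, where the median of all genes was 0.00 and -0.03. Without slide 1 the count was 0 in both genotypes, and without slide 2 it was 0 in Foxa3-/- lung, with the direction of every called gene kept. A gene was called where limma's two-sided test gave a Benjamini-Hochberg adjusted p below 0.05 over all genes. Levels are log2 intensity minus the 75th percentile of the same array, so that 0 is the brightness of the probe at that percentile, and levels of different probes are not compared. In whole lung, fewer cells of a type and less RNA per cell cannot be told apart.

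Foxa3 was checked first. Its probe was well above background on 6 of 6 WT arrays and on 0 of 5 Foxa3-/- arrays, and the WT level was -6.04 ± 0.12 after saline and -4.04 ± 0.07 after OVA (SD, n = 3 each). Each of slides 1 and 2 carried all 4 groups with 1 array apiece, and slide 3 lacked Foxa3-/- saline. Between 71.7% and 79.3% of the 43379 spots that are no controls were well above background, and the 75th percentile intensity ran from 984 to 1554. WT OVA array 1 had the most spots left out as uneven or outlying (183, against 48 to 140 on the others). Same-slide arrays deviated from their group means together in 12 of 15 pairs (correlation over 0.1), so each OVA difference below was also taken within slides. All 11 probes of the 10 genes were well above background on all 11 arrays and saturated on none.

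Promoter sequence was listed by RefSeq (GRCm38.p6) for 7 of the 10 genes, with 2 start sites for Bpifb1. Each window runs from 250 bases before the start to 50 after it. Those of Bpifa1 and Bpifb1 are shown because these genes lie in the same cluster on chromosome 2 and differed in opposite directions with OVA in WT lung. Those of Reg3g and Pigr are shown because these genes rose in both genotypes and their windows hold an NF-kappaB motif. That of Scgb3a1 is shown because it holds a forkhead motif and the gene did not pass the test. Lcn2 and Ltf also rose in both genotypes, but their windows hold neither motif and are not shown. Capitals mark matches on either strand to the forkhead motif TATTTAC and its variants TGTTTAC and TGTTTGC, or to the NF-kappaB motif GGGANNNNCC. The windows are Bpifa1 at chr2:154142630-154142929 (+ strand), Bpifb1 at chr2:154190568-154190867 and chr2:154200130-154200429 (+ strand), Reg3g at chr6:78468825-78469124 (- strand), Pigr at chr1:130826434-130826733 (+ strand) and Scgb3a1 at chr11:49663345-49663644 (+ strand).
Bpifa1: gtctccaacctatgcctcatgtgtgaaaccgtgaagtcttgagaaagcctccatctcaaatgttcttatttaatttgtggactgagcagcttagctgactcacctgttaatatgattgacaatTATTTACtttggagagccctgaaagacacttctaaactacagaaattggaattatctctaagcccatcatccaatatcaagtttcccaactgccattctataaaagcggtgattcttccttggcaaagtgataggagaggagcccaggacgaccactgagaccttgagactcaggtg
Bpifb1, first start: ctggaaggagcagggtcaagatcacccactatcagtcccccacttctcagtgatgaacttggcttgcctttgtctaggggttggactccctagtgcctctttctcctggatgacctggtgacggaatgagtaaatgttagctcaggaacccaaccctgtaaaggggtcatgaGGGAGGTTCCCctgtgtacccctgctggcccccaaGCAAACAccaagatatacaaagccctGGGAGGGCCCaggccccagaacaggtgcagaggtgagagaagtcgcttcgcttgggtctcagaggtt
Bpifb1, the other start: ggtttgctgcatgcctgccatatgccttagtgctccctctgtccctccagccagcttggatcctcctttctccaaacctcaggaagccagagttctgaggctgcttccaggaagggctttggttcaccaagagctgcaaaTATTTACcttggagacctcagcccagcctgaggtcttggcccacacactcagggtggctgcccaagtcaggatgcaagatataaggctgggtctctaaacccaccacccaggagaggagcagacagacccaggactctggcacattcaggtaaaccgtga
Reg3g: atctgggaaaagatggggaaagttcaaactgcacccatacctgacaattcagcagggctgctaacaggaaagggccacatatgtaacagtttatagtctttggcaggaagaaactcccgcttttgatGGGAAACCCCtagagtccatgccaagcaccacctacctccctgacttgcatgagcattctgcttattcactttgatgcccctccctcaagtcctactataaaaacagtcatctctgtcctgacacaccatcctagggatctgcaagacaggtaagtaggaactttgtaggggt
Pigr: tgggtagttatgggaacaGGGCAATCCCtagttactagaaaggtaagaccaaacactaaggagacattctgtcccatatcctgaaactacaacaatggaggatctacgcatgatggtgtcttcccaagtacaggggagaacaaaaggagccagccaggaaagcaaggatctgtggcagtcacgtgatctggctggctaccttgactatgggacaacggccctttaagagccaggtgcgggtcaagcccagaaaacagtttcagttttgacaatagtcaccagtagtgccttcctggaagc
Scgb3a1: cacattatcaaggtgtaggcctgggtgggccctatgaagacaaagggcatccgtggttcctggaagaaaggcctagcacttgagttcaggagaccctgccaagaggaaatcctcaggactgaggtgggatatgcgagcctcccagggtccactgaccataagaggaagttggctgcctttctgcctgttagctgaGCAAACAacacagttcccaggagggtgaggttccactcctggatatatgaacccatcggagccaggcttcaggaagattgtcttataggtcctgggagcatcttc

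A forkhead match was present in 4 of the 8 windows and 3 of the 7 genes, against 11.2% of the 32851 mouse promoter windows in the same table. It begins 127 bases before the start of Bpifa1, 55 before that of Scgb3a1, and 43 and 110 before the starts of Bpifb1. An NF-kappaB match was present in 3 of the 8 windows, against 20.7% of all windows. It begins 123 bases before the start of Reg3g and 232 before that of Pigr. The first Bpifb1 window holds 3 such matches, 78, 77 and 17 bases before the start, and those at 78 and 77 overlap on opposite strands. No forkhead match overlapped an NF-kappaB match, and the windows of Lcn2 and Ltf hold neither set of letters. A match describes these letters in this window and is no evidence of binding.

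Scgb1a1 encodes the main secretoglobin of club cells. Its level was 7.62, 7.51 and 7.47 on WT saline arrays 1 to 3 and 8.01, 7.45 and 7.72 on WT OVA arrays 1 to 3. On Foxa3-/- arrays it was 7.65 and 7.92 after saline and 7.81, 7.55 and 7.27 after OVA. The groups overlapped in both genotypes. The difference with OVA was 0.20 ± 0.18 (SE, 95% interval -0.21 to 0.60, adjusted p 0.465) in WT and -0.25 ± 0.20 (-0.69 to 0.20, adjusted p 0.435) in Foxa3-/- lung by limma. In WT its sign turned with quantile normalization (-0.08) and in the authors' value table (-0.15). Of the 10 genes, Scgb1a1 had the lowest spread over the 11 arrays (SD 0.22). Its probe, near position 8763869 of chromosome 19 (mm7), was read from the low-gain scan on all 11 arrays, as were those of Scgb3a1 and Scgb3a2.

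Scgb3a1 encodes a secretoglobin of the larger airways. It was 5.46, 5.64 and 5.04 on the WT saline arrays and 5.37, 4.61 and 4.97 on the WT OVA arrays, which overlapped. In Foxa3-/- lung it was 5.18 and 5.11 after saline and 5.51, 5.39 and 5.38 after OVA, so that all 3 OVA arrays were above both saline arrays. The difference was -0.40 ± 0.20 (adjusted p 0.195) in WT and 0.28 ± 0.23 (adjusted p 0.446) in Foxa3-/- lung by limma, and neither was called. Without WT OVA array 1 the WT difference was -0.59 (adjusted p 0.0478), and without WT OVA array 2 it was -0.21 (adjusted p 0.524).

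Scgb3a2, a secretoglobin of club cells and their early progenitors, was lower on every OVA array than on any saline array of its genotype, without passing the test. In WT lung the saline arrays held 7.41, 7.45 and 7.27 and the OVA arrays 7.08, 5.25 and 5.77. The Foxa3-/- saline arrays held 7.50 and 7.46 and the OVA arrays 6.20, 6.60 and 5.42. Over both genotypes the saline arrays ran from 7.27 to 7.50 and the OVA arrays from 5.25 to 7.08. The difference was -1.34 ± 0.44 in WT (adjusted p 0.0597) and -1.41 ± 0.49 in Foxa3-/- lung (adjusted p 0.0957) by limma.

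The spread of Scgb3a2 after OVA came with that of other club cell markers and of markers of some other lung cells. Over 5 markers of club cells outside the group, the mean level was 4.53, 3.69 and 4.12 on WT OVA arrays 1 to 3 and 4.30, 4.26 and 3.78 on Foxa3-/- OVA arrays 1 to 3. It was 4.36 to 4.53 on WT saline and 4.60 on both Foxa3-/- saline arrays. WT OVA array 1, the highest for Scgb3a2, thus stood at the saline level of these markers, and the lowest Foxa3-/- array was the same one for both. The order was not particular to club cells. On WT OVA arrays 1 to 3 ciliated cell markers had mean levels of 0.97, 0.34 and 0.75, and alveolar type II cell markers 5.43, 5.05 and 5.15. Foxa3-/- OVA array 3 was the lowest of its group for these 2 lists also. General epithelial markers (2.52, 2.48 and 2.58 on the WT OVA arrays) did not follow the order. Without WT OVA array 1 the Scgb3a2 difference was -1.86 in WT (adjusted p 0.00572) and -1.41 in Foxa3-/- lung (adjusted p 0.0258), both called. In WT it was also called with quantile normalization (adjusted p 0.0332), normexp background correction (0.0296), the authors' value table (0.0213), a trended robust prior (0.0406) and without slide 2 (-1.83, adjusted p 0.0273). Within slides 1, 2 and 3 the WT difference was -1.64, -0.38 and -2.02.

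**Figure D1:**
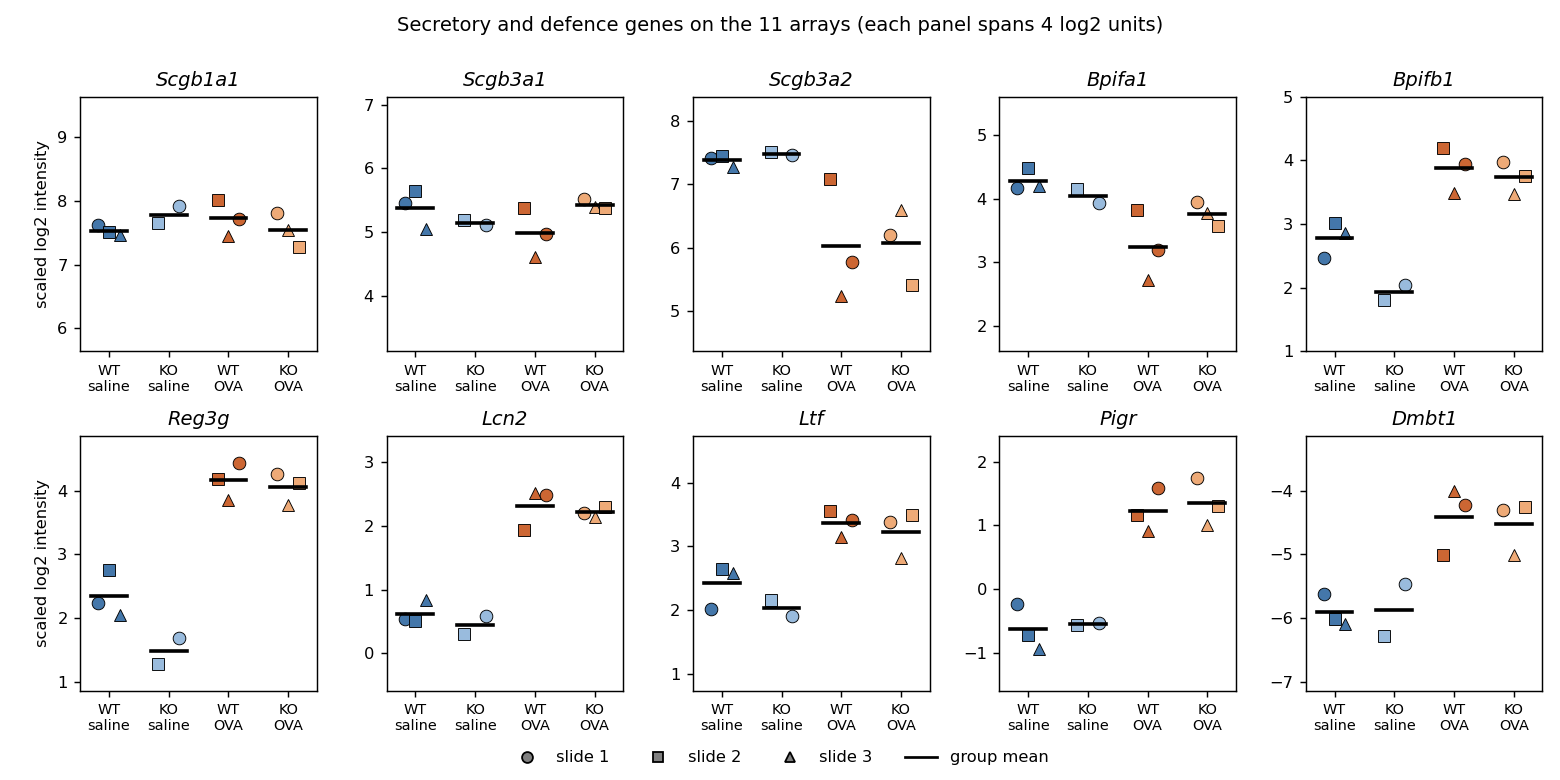
Level of each of the 10 genes on the 11 arrays, as log2 intensity minus the 75th percentile of the same array (y axis), by genotype (KO is Foxa3-/-) and challenge (x axis); marker shapes give the slide, bars the group mean, and every panel spans the same number of log2 units. Scgb1a1 and Scgb3a1 are nearly level, Scgb3a2 is lower and spread after OVA, and the genes from Bpifb1 and the lower row are higher on all OVA arrays than on the saline arrays of the same genotype.

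Bpifa1 encodes a protein of the airway surface liquid, also called SPLUNC1 or Plunc, with antimicrobial and surfactant-like properties. It was 4.17, 4.48 and 4.20 on WT saline arrays 1 to 3 and 3.83, 2.73 and 3.19 on WT OVA arrays 1 to 3, with no overlap. In WT lung it fell 2.05-fold (-1.03 ± 0.25, adjusted p 0.0262 by limma), by -0.98, -0.64 and -1.48 within slides 1 to 3. On Foxa3-/- arrays it was 4.15 and 3.93 after saline and 3.95, 3.77 and 3.58 after OVA, a difference of -0.27 ± 0.28 (95% interval -0.91 to 0.36, adjusted p 0.552). Here the groups overlapped, and the slides gave 0.02 and -0.57.

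The Bpifa1 call in WT was lost without WT saline array 1 (-1.09, adjusted p 0.0618), 2 (-0.94, 0.0897) or 3 (-1.08, 0.0600), without WT OVA array 2 (-0.77, 0.0755) or 3 (0.0843), and with only the groups compared in the fit (0.0720). Bpifa1 was read from the low-gain scan on 3 of 3 WT saline, 1 of 2 Foxa3-/- saline, 0 of 3 WT OVA and 2 of 3 Foxa3-/- OVA arrays, and the part of the scan in the difference was not tested. Its probe lies at chr2:153888533-153888953 in mm7, a span longer than the probe, so that it was aligned in pieces.

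Bpifb1, a larger relative of Bpifa1 from the same cluster and a product of airway secretory cells, moved the other way. It was 2.46, 3.01 and 2.85 on the WT saline arrays and 4.19, 3.49 and 3.94 on the WT OVA arrays. On Foxa3-/- arrays it was 1.81 and 2.04 after saline and 3.97, 3.47 and 3.76 after OVA. No OVA array overlapped a saline array in either genotype, and the rise was 2.14-fold in WT (1.10 ± 0.22, adjusted p 0.0143) and 3.50-fold in Foxa3-/- lung (1.81 ± 0.24, adjusted p 0.00545) by limma. Within slides it was 1.48, 1.18 and 0.63 in WT and 1.93 and 1.95 in Foxa3-/- lung. The WT call was lost without WT OVA array 3 (1.06, adjusted p 0.0570) and the Foxa3-/- call without Foxa3-/- saline array 1 (1.69, adjusted p 0.0687). A fit without a Foxa3-/- saline array, here and below, keeps 1 array in that group, which is assumed to vary like the other groups. Its probe lies at chr2:153958063-153959091 in mm7, also in pieces.

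Reg3g encodes a secreted C-type lectin that kills Gram-positive bacteria, and had the largest rise of the 10 genes in Foxa3-/- lung. The level was 2.24, 2.76 and 2.05 on WT saline arrays 1 to 3 and 4.18, 3.86 and 4.44 on WT OVA arrays 1 to 3. Foxa3-/- saline arrays held 1.28 and 1.68 and Foxa3-/- OVA arrays 4.26, 3.78 and 4.12. All 6 OVA arrays lay above all 5 saline arrays. The rise was 3.51-fold in WT (1.81 ± 0.23, adjusted p 0.00298) and 5.95-fold in Foxa3-/- lung (2.57 ± 0.26, adjusted p 0.00219) by limma. Within slides it was 2.20, 1.43 and 1.81 in WT and 2.57 and 2.85 in Foxa3-/- lung, and no array left out alone ended either call. Reg3g was read from the low-gain scan on 2 of 3 WT OVA and 3 of 3 Foxa3-/- OVA arrays and on 0 of 5 saline arrays. WT OVA array 1, read without it, held 4.18, which lies within the range of the other 5 OVA arrays.

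Lcn2 encodes lipocalin 2, which withholds iron from bacteria by binding their siderophores. It was 0.54, 0.50 and 0.83 on WT saline and 1.94, 2.52 and 2.48 on WT OVA arrays 1 to 3. Foxa3-/- arrays held 0.31 and 0.58 after saline and 2.21, 2.14 and 2.30 after OVA. The groups did not overlap, and WT OVA array 1 was the nearest to saline. The rise was 3.23-fold in WT (1.69 ± 0.17, adjusted p 0.00132) and 3.41-fold in Foxa3-/- lung (1.77 ± 0.19, adjusted p 0.00326) by limma. Without Foxa3-/- saline array 1 the Foxa3-/- rise was 1.63 (adjusted p 0.0508). Within slides it was 1.94, 1.44 and 1.69 in WT and 1.62 and 1.99 in Foxa3-/- lung.

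Ltf encodes lactoferrin, an iron-binding protein of secretions and of neutrophil granules. By its brighter probe it was 2.02, 2.65 and 2.58 on the WT saline arrays and 3.56, 3.15 and 3.41 on the WT OVA arrays. Foxa3-/- lung held 2.15 and 1.91 after saline and 3.38, 2.82 and 3.50 after OVA, again with no overlap. The rise was 1.94-fold in WT (0.96 ± 0.23, adjusted p 0.0245) and 2.31-fold in Foxa3-/- lung (1.21 ± 0.25, adjusted p 0.0268) by limma, with 1.40, 0.91 and 0.57 within slides in WT and 1.47 and 1.36 in Foxa3-/- lung. The other Ltf probe gave 0.97 ± 0.25 (adjusted p 0.0306) and 1.15 ± 0.28 (adjusted p 0.0408).

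In WT the Ltf call was lost without saline array 1 (0.76, adjusted p 0.0697) or 2 (1.08, 0.0528) and without OVA array 2 (1.07, 0.0551) or 3 (0.94, 0.0802). The Foxa3-/- call was lost without OVA array 1 (1.13, adjusted p 0.0787) or 3 (1.07, 0.0900) and with only the groups compared (0.0839). It was also lost without saline array 1 (1.32, adjusted p 0.126) or 2 (1.09, 0.160), where the spread comes from the other groups.

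Ltf and Lcn2 are also carried by neutrophil granules. Of 14 neutrophil genes measured, the 2 that rose were Ltf and Lcn2 themselves, in both genotypes, and the other 12 were not called. The mean level of those 12 was -2.58 to -1.11 on WT saline, -1.76 to -1.17 on Foxa3-/- saline, -1.74 to -1.45 on WT OVA and -1.73 to -0.66 on Foxa3-/- OVA arrays, which overlap. Each of the 12 was above background on some array of every group. Camp, a granule gene, differed by 0.08 ± 0.88 in WT and 0.67 ± 0.98 in Foxa3-/- lung, and Mpo, the gene of myeloperoxidase, by 0.61 ± 0.41 and 0.27 ± 0.46. The nearest to a call was Retnlg (1.42 ± 0.46 in WT, adjusted p 0.0588). The median difference of the 14 genes, Ltf and Lcn2 among them, was 0.47 in WT and 0.34 in Foxa3-/- lung. Besides Camp, Mpo and Retnlg, 3 more genes were higher in both genotypes. They were Ctsg (0.83 in WT and 0.64 in Foxa3-/- lung), Mmp8 (0.59 and 0.41) and Csf3r (0.54 and 0.03). Ngp, Prtn3 and Cxcr2 differed in sign between the genotypes, and S100a8, S100a9 and Mmp9 were lower in both. S100a8 differed by -0.53 ± 0.62 in WT and -0.31 ± 0.69 in Foxa3-/- lung, and S100a9 by -0.35 ± 0.57 and -0.15 ± 0.64. Mmp9 differed by -0.52 ± 0.49 and -0.46 ± 0.55. Which neutrophil genes besides Ltf and Lcn2 are given with values was chosen after the values were seen.

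Pigr encodes the receptor that carries polymeric IgA and IgM across epithelium and is shed with them as secretory component. The level was -0.23, -0.73 and -0.94 on WT saline arrays and 1.17, 0.91 and 1.58 on WT OVA arrays 1 to 3. Foxa3-/- arrays held -0.56 and -0.54 after saline and 1.75, 1.00 and 1.30 after OVA. The groups did not overlap, and the rise was 3.61-fold in WT (1.85 ± 0.25, adjusted p 0.00365) and 3.73-fold in Foxa3-/- lung (1.90 ± 0.28, adjusted p 0.00700) by limma. Within slides the WT rise was 1.81, 1.90 and 1.85, and the Foxa3-/- rise 2.29 and 1.85. Without Foxa3-/- saline array 1 or 2, which leaves 1 array in that group, the Foxa3-/- difference stayed at 1.89 and 1.91, at adjusted p 0.0742 and 0.0503.

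Dmbt1 encodes a scavenger receptor protein of mucosal secretions that clumps bacteria. It was -5.62, -6.01 and -6.10 on WT saline and -5.01, -4.00 and -4.22 on WT OVA arrays 1 to 3. Foxa3-/- lung held -6.28 and -5.47 after saline and -4.30, -5.01 and -4.25 after OVA. The groups did not overlap, and WT OVA array 1 was again the nearest to saline. Dmbt1 rose 2.83-fold in WT (1.50 ± 0.33, adjusted p 0.0193 by limma), with 1.40, 1.00 and 2.10 within slides. In Foxa3-/- lung the difference of 1.35 ± 0.37 (1.17 and 2.03 within slides) had adjusted p 0.0554.

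The Dmbt1 difference was smaller with normexp background correction and in the authors' value table, and the cause was not tested. It was 0.84 with normexp and 0.63 in the authors' value table in WT, both called, and 0.42 (adjusted p 0.16) and 0.59 (adjusted p 0.0336) in Foxa3-/- lung. The WT call was lost without saline array 2 (1.45, adjusted p 0.0677) or 3 (1.41, 0.0582) and without OVA array 2 (1.30, 0.0752) or 3 (1.41, 0.0713). The Foxa3-/- difference was called without WT OVA array 1 (1.35, adjusted p 0.0280) or Foxa3-/- OVA array 2 (1.60, 0.0299), with quantile normalization (0.0421), with a trended robust prior (0.0436) and with a stricter filter (0.0469). The saline arrays of Foxa3-/- lung moved it further, to 0.95 (0.278) without array 1 and 1.76 (0.0969) without array 2.

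**Figure D2:**
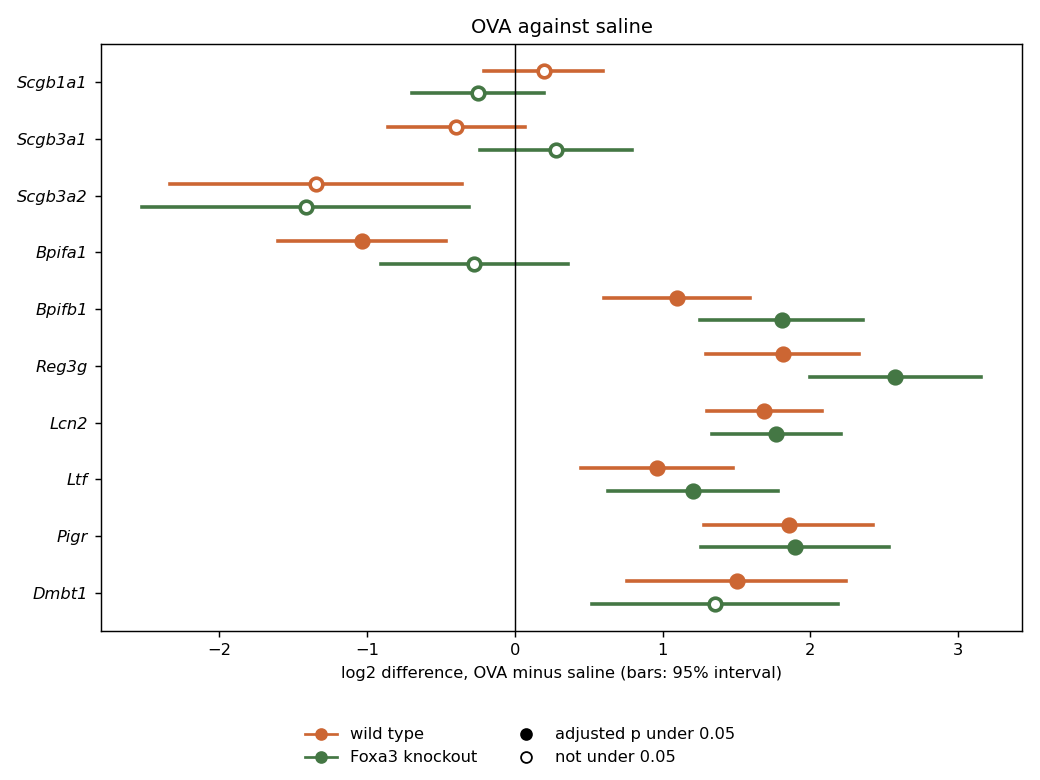
Difference of OVA from saline for each of the 10 genes, in log2 units (x axis), in WT (orange) and Foxa3-/- lung (green), from the limma model over 11 arrays; bars are 95% intervals and filled points have adjusted p under 0.05. From Bpifb1 to Dmbt1 all 12 points lie right of 0, between 0.96 and 2.57, and the Scgb3a2 points lie left of it, at -1.34 and -1.41.

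Within WT OVA lung the 10 genes did not deviate together. Array 1 lay above its group mean for Scgb3a2 (1.04), Bpifa1 (0.58), Scgb3a1 (0.38), Bpifb1 (0.32) and Scgb1a1 (0.28), and below it for Dmbt1 (-0.60) and Lcn2 (-0.37). Array 2 deviated the other way for these 7 genes, from -0.78 for Scgb3a2 to 0.41 for Dmbt1. Array 1 was thus nearest to saline for Scgb3a2, Bpifa1, Lcn2 and Dmbt1, but was the highest of the 3 for Bpifb1 and Ltf.

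Genotype was compared next, as the question of whether Foxa3 sets the level of these secretions. None of the 10 genes was called between Foxa3-/- and WT lung after saline, where 0.096% of all genes (21) were called (0.0274% higher and 0.0686% lower) and 710 had an unadjusted p below 0.05. After OVA the count was also 0 of 10, against 0.215% of all genes (0.0549% higher, 0.16% lower, 47 called, 1085 at unadjusted p below 0.05). The limma differences ran from -0.87 to 0.26 after saline, with a median of -0.20, and from -0.19 to 0.52 after OVA, with a median of -0.10. Adjusted p was 0.984 to 1.00 and 0.999.

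After saline, Bpifb1 and Reg3g were lower on both Foxa3-/- arrays than on any WT array. Bpifb1 held 1.81 and 2.04 against 2.46 to 3.01 (-0.85 ± 0.24, unadjusted p 0.0069, adjusted p 0.984 by limma), and -0.42 and -1.20 within slides 1 and 2. Reg3g held 1.28 and 1.68 against 2.05 to 2.76 (-0.87 ± 0.26, unadjusted p 0.0079, adjusted p 0.987), and -0.56 and -1.48 within slides. For 3 more genes the saline arrays of the genotypes did not overlap, which makes 5 of 10 against 21.7% of all genes with 2 arrays set against 3: Scgb1a1 (0.26 ± 0.20) and Scgb3a2 (0.10 ± 0.49) were higher and Bpifa1 (-0.24 ± 0.28) lower in Foxa3-/- lung, each with a 95% interval that includes 0. None of the settings tried called any of the 10 genes in this comparison.

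After OVA, the level of Reg3g in Foxa3-/- lung differed from WT by -0.11 ± 0.23 (95% interval -0.63 to 0.41) and that of Bpifb1 by -0.14 ± 0.22 (-0.63 to 0.35). Lcn2 (-0.10 ± 0.17), Ltf (-0.14 ± 0.23), Pigr (0.14 ± 0.25) and Dmbt1 (-0.11 ± 0.33) likewise had intervals that include 0. The furthest from 0 were Bpifa1 (0.52 ± 0.25, unadjusted p 0.0696) and Scgb3a1 (0.45 ± 0.20, unadjusted p 0.0574), both higher in Foxa3-/- lung. Scgb3a1 was the 1 gene of the 10 whose OVA arrays did not overlap between genotypes, with 5.38 to 5.51 against 4.61 to 5.37, where 8.24% of all genes did not overlap. The widest intervals were those of Scgb3a2 (0.04 ± 0.44, -0.95 to 1.02) and Dmbt1 (-0.85 to 0.63).

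**Figure D3:**
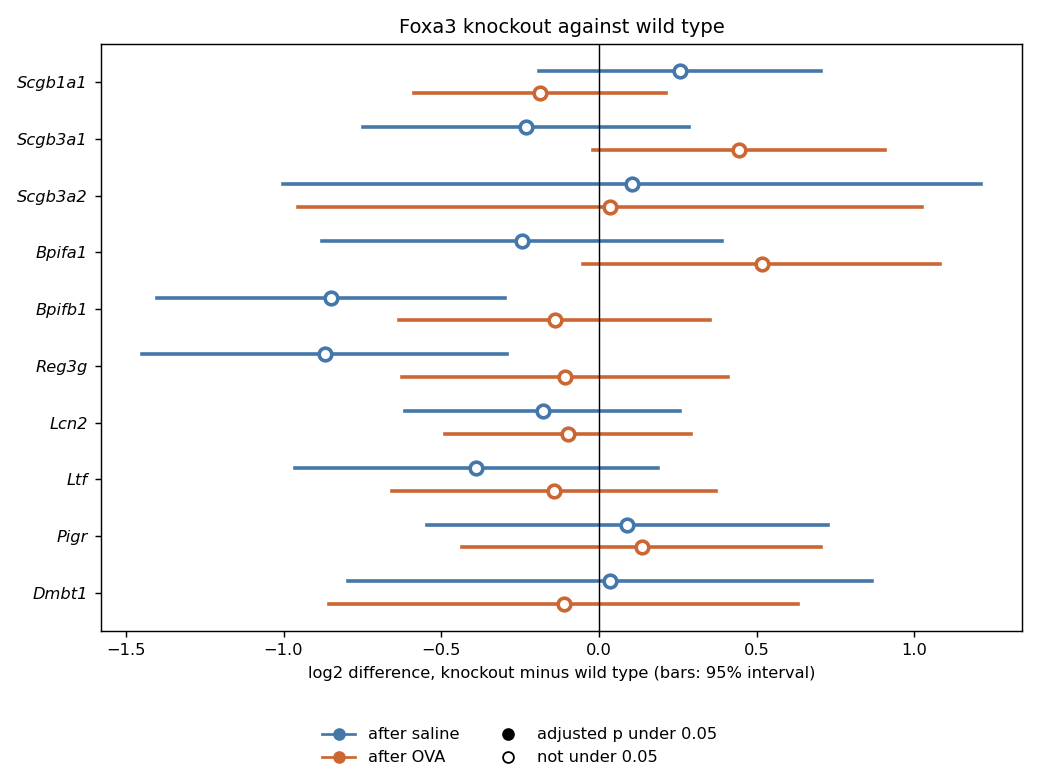
Difference of Foxa3-/- from WT lung for each of the 10 genes, in log2 units (x axis), after saline (blue) and after OVA (orange), from the limma model over 11 arrays; bars are 95% intervals, and no point has adjusted p under 0.05. After saline Bpifb1 (-0.85) and Reg3g (-0.87) lie furthest left, and after OVA Bpifa1 (0.52) and Scgb3a1 (0.45) furthest right.

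The OVA effect itself was compared between the genotypes, since a call in 1 genotype and not in the other is no difference between them. None of the 10 genes was called, and of all genes 0.00457% (1 gene) was, with 564 at unadjusted p below 0.05. The OVA effect in Foxa3-/- minus that in WT lung was 0.76 ± 0.34 for Reg3g (unadjusted p 0.0537), 0.71 ± 0.33 for Bpifb1 (0.0580), 0.76 ± 0.38 for Bpifa1 (0.0743) and 0.68 ± 0.31 for Scgb3a1 (0.0552), all at adjusted p 1.00 by limma. For Scgb1a1 it was -0.44 ± 0.27. The remaining genes lay between -0.15 and 0.25, and for Scgb3a2 (-0.07 ± 0.66) and Dmbt1 (-0.15 ± 0.49) the interval was wide. So neither the fall of Bpifa1 in WT nor the larger rise of Reg3g in Foxa3-/- lung was shown to differ between the genotypes.

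Other genes of the same roles were taken from lists. Of 17 other club cell genes measured, most of them detoxifying enzymes, 8 fell and 0 rose with OVA in WT lung, and 2 fell in Foxa3-/- lung, with median differences of -0.64 and -0.72. Aox3, an aldehyde oxidase, fell by 0.93 ± 0.16 (adjusted p 0.00849) in WT and 0.84 ± 0.18 (adjusted p 0.0277) in Foxa3-/- lung. Cyp2a5 and Cyp4b1, cytochromes P450, fell in WT (-1.91 ± 0.37 and -0.91 ± 0.26) and differed by -1.45 ± 0.41 and -1.11 ± 0.30 in Foxa3-/- lung, at adjusted p 0.0606 and 0.0526. The median of the 8 genes of the short club cell list, which holds the 3 secretoglobins, was -0.40 and -0.34, with 1 of 8 called, Aldh1a1 in WT (-0.74 ± 0.20).

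Of 24 other airway defence secretions measured, 10 rose and 0 fell in each genotype, with a median of 0.41 in both. The acute-phase proteins led: Saa3 rose by 6.31 ± 0.39 in WT and 5.90 ± 0.44 in Foxa3-/- lung, and Saa1 by 4.57 ± 0.50 and 4.29 ± 0.56. Complement C3 rose by 1.30 ± 0.11 and 1.03 ± 0.13, and Cp, the copper-binding ceruloplasmin, by 0.96 ± 0.09 and 0.74 ± 0.10. All 8 of these had adjusted p between 0.000249 and 0.00547 by limma. Pglyrp1, a peptidoglycan recognition protein, was the 1 gene of this list called between the genotypes after OVA. It was 2.01 ± 0.22 higher in Foxa3-/- lung (adjusted p 0.00917), and it is named after its value was seen. After saline it also stood 1.31 ± 0.24 higher in Foxa3-/- lung, without a call (adjusted p 0.209 by limma). The cause of this difference between the genotypes was not tested.

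Among 17 cytokines and regulators known to act on such genes, 5 rose in WT and 2 in Foxa3-/- lung, and 0 fell. Spdef, the goblet cell factor, rose by 1.48 ± 0.21 and 1.46 ± 0.24, and Tnf by 1.43 ± 0.26 and 1.23 ± 0.29. Il6 rose by 2.81 ± 0.63 in WT (adjusted p 0.0210) and differed by 2.13 ± 0.71 in Foxa3-/- lung (adjusted p 0.0881). Foxa3 rose by 1.99 ± 0.30 in WT. Il17a, Il17c and Il22 were not among the genes tested. Whether they lacked a probe or had only probes that failed the background filter was not separated, so nothing is said of their levels. Foxa2, named in the title of the study, differed by -0.36 ± 0.16 and -0.61 ± 0.18, without a call.

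For the partners of Pigr, 3 of 7 genes rose in each genotype. Tnfsf13b, the B cell survival factor BAFF, rose by 1.03 ± 0.14 in WT and 1.09 ± 0.16 in Foxa3-/- lung, and Irf4, a plasma cell regulator, by 1.50 ± 0.37 and 1.70 ± 0.41. Jchain, whose product joins polymeric IgA and binds the receptor, rose by 1.69 ± 0.37 in Foxa3-/- lung (adjusted p 0.0314) and differed by 0.45 ± 0.33 in WT (adjusted p 0.366). Mzb1, an antibody-folding helper of plasma cells, rose by 0.91 ± 0.22 in WT and differed by 0.87 ± 0.24 in Foxa3-/- lung (adjusted p 0.0594). The Jchain difference between genotypes after OVA, 1.01 ± 0.33, was not called (adjusted p 0.680).

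**Figure D4:**
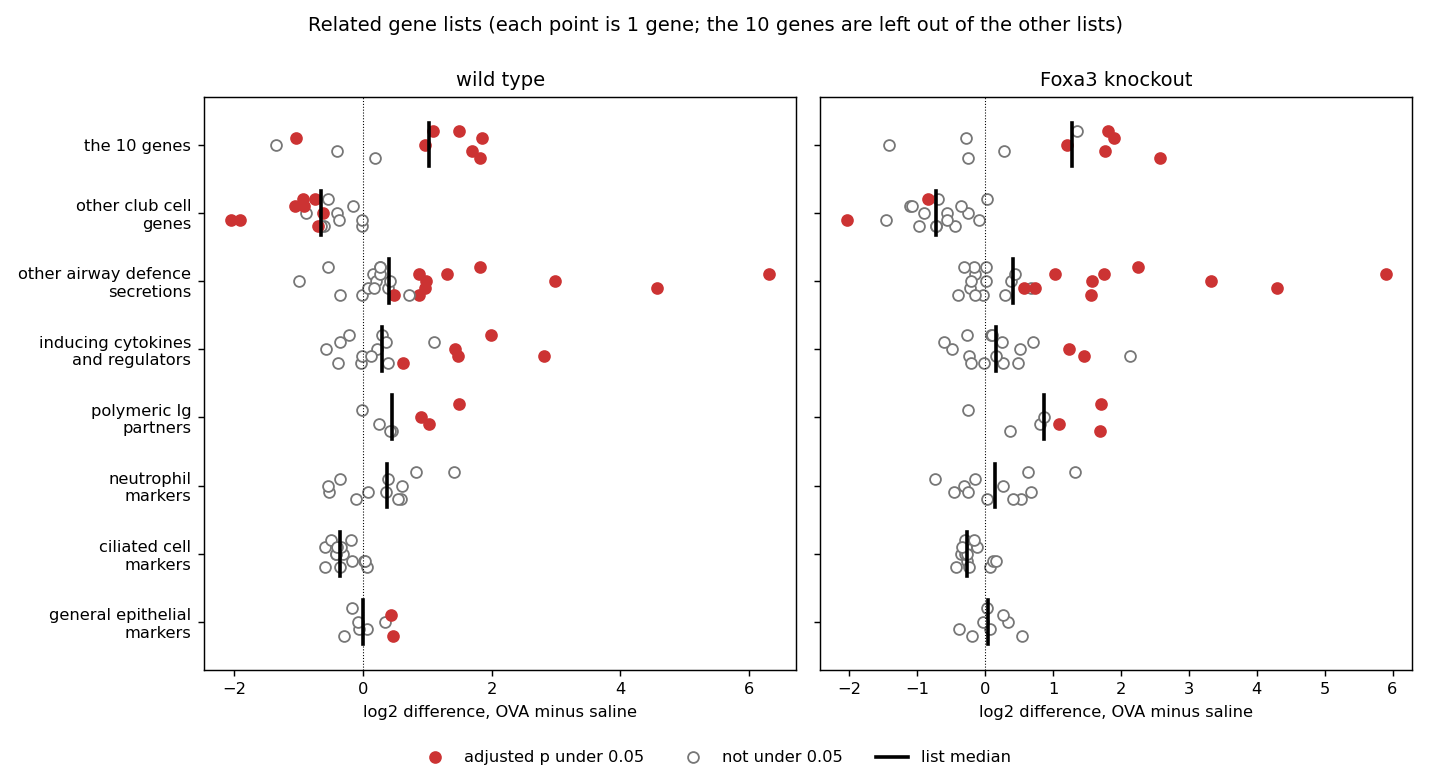
Difference of OVA from saline in log2 units (x axis) for each measured gene of the 10 genes and of 7 other lists (rows), in WT (left) and Foxa3-/- lung (right); filled points have adjusted p under 0.05 and black bars are list medians. Called club cell genes lie left of 0, called defence secretions right of it, up to 6.31, and no neutrophil or ciliated gene outside the 10 is called.

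Markers of other cells moved with the rises. All 8 goblet cell genes measured rose in WT and 7 of 8 in Foxa3-/- lung (medians 2.01 and 1.95). Their mean level was -1.06 to -0.40 on saline and 1.51 to 2.16 on OVA arrays. Some genes stand on more than 1 list, so these counts are not separate: Muc5b, Tff2 and Spdef were also counted above. Of 8 genes of basal cells and tracheal epithelium, 3 rose in WT and 4 in Foxa3-/- lung, with mean levels of -3.31 to -2.76 on saline and -2.43 to -1.70 on OVA arrays. Cartilage genes of the trachea and large bronchi had 2 and 3 of 9 called higher, but their mean levels overlapped, at -3.77 to -3.27 on saline and -3.75 to -2.61 on OVA arrays. The part of basal cells or of large airway in the dissected tissue in the rises of the 10 genes was not tested.

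The mean level of lung tissue markers was lower after OVA. Of 6 genes listed as markers of lung tissue, 1 was called lower in each genotype, the endothelial gene Pecam1 (medians of the 6 genes -0.42 and -0.37). In WT lung Sftpc (0.41 ± 0.14) and Scgb1a1 (0.20 ± 0.18) were higher with OVA, without a call. The mean level of the 5 outside the 10 genes was 4.02 to 4.11 on the 5 saline arrays. On the 6 OVA arrays it was 3.49 to 3.99, with no overlap. Of 7 plasma cell genes 2 rose in each genotype (medians 0.26 and 0.81). This list shares Jchain, Tnfrsf17, Mzb1, Xbp1 and Irf4 with the partners of Pigr, and the genes called are among these. The mean level of the 7 plasma cell genes was -0.73 and -0.79 on Foxa3-/- saline against -0.20 to -0.12 on Foxa3-/- OVA arrays. In WT it was -0.80 to -0.59 on saline and -0.64 to -0.04 on OVA arrays, which overlapped. The part of these shifts in the differences of the 10 genes was not tested.

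For the remaining lists few genes or none were called. Of 14 ciliated cell genes 0 were called in either genotype (medians -0.35 and -0.26), with mean levels of 0.88 to 1.07 on saline and 0.34 to 0.97 on OVA arrays, and 2 of 8 general epithelial genes rose in WT and 0 in Foxa3-/- lung, with medians of 0.00 and 0.05. Alveolar type II cell genes had 1 of 10 called higher and 1 lower in WT and 0 in Foxa3-/- lung. Of 6 genes of submucosal and salivary glands, 2 fell in WT and 1 rose in Foxa3-/- lung. The alveolar gene called higher (Sftpd) and the gland gene called higher (Bpifb5) were also counted among the defence secretions.

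The genes with the most similar profile over the 11 arrays were found for the 7 of the 10 genes whose SD was at least 0.5. Similarity was the smallest root mean square distance between centred log2 levels. Only genes with a current RefSeq symbol and a value on all 11 arrays were searched, without names of the Gm, Rik or LOC type. For Lcn2 they were Cd83, an activation marker of dendritic and B cells, at 0.11, and Sting1, a sensor adaptor of cytosolic DNA, at 0.13. Cd83 rose by 1.55 in WT and 1.68 in Foxa3-/- lung. Dmbt1 was nearest to Lacc1 (0.16) and to Col2a1, the cartilage collagen (0.19), which rose by 1.26 and 1.51. Scgb3a2 was nearest to Acoxl (0.13) and Pcolce2 (0.15), which differed by -1.28 and -1.36 in WT.

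The other 4 genes had neighbours at distances of 0.18 to 0.31. Ltf was nearest to Phgr1 (0.18) and Itga7 (0.22), and Bpifb1 to Oit1 (0.27) and to Ltf (0.27), so that Ltf was the 1 gene of the 10 among the neighbours of another. Pigr was nearest to Vsig1 (0.26) and Slc5a9 (0.28), and Reg3g to Lag3, an inhibitory receptor of T cells (0.28), and Morc1 (0.31). The points of these distances share the arrays, the 2 challenges and the slides, and they are given as a description.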

How the data were processed

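Total RNA (400 ng) from 11 lung samples was hybridised to one-colour (Cy3) Agilent arrays, grouped by genotype and challenge as labelled. The deposited scanner files hold, per the file headers, a background-subtracted and detrended intensity for every spot, made with Feature Extraction 9.5.1.1, while Agilent Feature Extraction 9.1 is the version in the submitters' processing notes. The authors' deposited value table holds log2 values with column medians of 7.67, whose ranks follow the raw median signal (rank correlation at least 0.9999); its method is not stated, and its scale was read from the values. The gene name in the files gave the 10 genes (Bpifa1 as Plunc, Bpifb1 as U46068). Other probes were named through a GRCm38.p6 table by RefSeq accession (22951), symbol (6659) or synonym (3109), and 8455 by the file alone.

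The 75th percentile of each array was subtracted from its log2 intensities, leaving out control spots and uneven or outlying spots. A probe had to lie well above background on 2 or more of the 11 arrays (32945 did), and the brightest such probe stood for its gene (21874 genes). A single limma 3.58.1 model (R 4.3.3) gave each group its own mean, with empirical Bayes moderation, two-sided tests and Benjamini-Hochberg adjustment over all genes at 0.05. The fit was tested on simulated data with independent arrays and no slide effect. That test therefore does not cover the shared deviation of same-slide arrays seen here. The number of arrays, 2 or 3 in a group, limits the precision. The genes and lists were chosen with earlier results of these data known. Named from each related list were up to 4 genes of smallest p over the OVA comparisons, and for each gene with an SD of at least 0.5 the 2 nearest profiles. A gene of the club cell list that met this rule is counted but not reported by name here. Alternatives were median and quantile scaling, normexp (offset 50), the authors' table, no filter and a stricter filter, the mean of all probes, fits with the compared groups alone, a trended robust prior, blocks for slide and for replicate number, each array left out, and each slide left out whole, which was added after seeing the data.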

Additional observations from a re-analysis of the deposited data

How the results depend on the processing

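All called OVA differences of the 10 genes kept their direction under all 25 alternatives, and none of 1240 recomputed values reversed a call. Of these values 48 lost a call and 15 gained one. Without WT OVA array 1, Scgb3a1 and Scgb3a2 gained a call in WT, and 6295 genes of all tested were called. In WT the count of genes called was 7 of 10 and ranged from 3 to 9 with 1 array left out (4 without WT saline array 2, 4 without WT OVA array 2, 3 without WT OVA array 3). It was 4 without slide 3 and 0 without slide 1, a fit that called 27 genes of all tested, against 4165 with all arrays. In Foxa3-/- lung the count was 5 and ranged from 1 to 7 with 1 array left out (1 without Foxa3-/- saline array 1, 3 without array 2). It was 0 without slide 1 and 0 without slide 2, fits that called 13 and 3 genes of all tested, against 1786 with all arrays. Fits without a Foxa3-/- saline array or without slide 1 or 2 keep 1 array in that group, assumed to vary like the others. These fits have fewer arrays, and the differences of Reg3g stayed between 1.62 and 2.02 in WT and between 2.34 and 2.78 in Foxa3-/- lung. Other genes moved more with an array or slide left out. Dmbt1 ran from 0.82 to 1.76 in Foxa3-/- lung. In WT, Bpifa1 ran from -1.33 to -0.77 and Ltf from 0.74 to 1.16. Over all alternatives the counts of all genes called ran from 27 to 6295, 3 to 3325, 0 to 30 (knockout after saline), 1 to 95 (after OVA) and 0 to 1 (difference of the OVA effects), and the comparisons of genotype and of the OVA effects called 0 of the 10 genes each time.

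The replicate numbers of the titles do not pair the samples: same-numbered arrays had correlations of -0.40 to 0.34, over 0.1 in 4 of 15 pairs. With the replicate block, 678 genes were called with OVA in Foxa3-/- lung, and Ltf there lost its call (adjusted p 0.0792). With slide as a block 2713 and 825 genes were called. The authors' table called 1641 genes higher and 1215 lower in Foxa3-/- lung and normexp 1446 and 808, against 1350 and 436. Normexp moved the median of all genes in WT to 0.13.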
